A study of Mus musculus with 19 samples.

Results

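Claudins are the membrane proteins that form the strands of tight junctions, the belts that seal the space between neighbouring epithelial cells. Some claudins close this space and others form pores for ions or water, so the claudins that a cell makes set how leaky its junctions are. In liver they close off bile at the canaliculus between hepatocytes and around the lumen of the bile ducts, and duct cells are known to make claudins that hepatocytes lack. The 10 claudin genes Cldn1, Cldn2, Cldn3, Cldn4, Cldn6, Cldn7, Cldn8, Cldn10, Cldn12 and Cldn14 were taken by gene symbol from the 35274 genes measured, and all 10 were found. Of the other 25 claudin genes of the tables, 19 with a symbol in the list used here are described with the partner genes.

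RNA was sequenced from mouse hepatocytes of 3 groups of 5 biological samples, all of the genotype OPN-CreERT2;Rosa26R-mT/mG. In these animals the osteopontin promoter, active in bile duct cells, drives a Cre recombinase that tamoxifen switches on, and recombined cells and their descendants change from red tdTomato to green fluorescence. The GREEN group came from livers under chronic injury and is labelled DR-derived, an abbreviation the labels leave unexplained; the RED group, native tdTomato hepatocytes, came from livers under chronic injury as well; the CTL group was native hepatocytes from healthy liver. The sources used here do not give the kind of injury, or the age and sex of the animals. The library codes of the GREEN and RED samples, and not those of the CTL samples, carry "16w", which the labels do not explain, and no other time of tamoxifen or injury is given. GREEN 3 and GREEN 4 carry the same number in their library codes, and whether they came from 1 animal is not stated.

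Each group entered the tests with 2 libraries of experiment 1, made with a poly(A) kit, and 3 of experiment 2, made with a ribosomal RNA depletion kit. Total estimated counts were 22442607 to 34216824 per library in experiment 1 and 38061859 to 44177627 in experiment 2. The labelled cell type was checked with 25 hepatocyte markers, none of them at 0 in any group, whose summed level was 45204 to 108254 CPM (counts per 1000000 counts of a library) in GREEN, 117443 to 169882 CPM in RED and 158554 to 218902 CPM in CTL libraries. GREEN 3, GREEN 4 and GREEN 5 stood apart from GREEN 1 and GREEN 2. Their hepatocyte sums of 61314, 45204 and 52382 CPM were the lowest 3 of all 15 libraries, and their sums over 25 bile duct markers of 4931, 11156 and 6196 CPM the highest 3. Results are therefore also given without these 3 libraries, which leaves experiment 2 alone for GREEN.

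The claudins fell into a pair of sets by whether they were measurable in native hepatocytes. Cldn1, Cldn2, Cldn3, Cldn12 and Cldn14 passed the filter on low counts in RED and CTL libraries alone. Cldn4, Cldn6, Cldn7, Cldn8 and Cldn10 passed only with the GREEN libraries, so that a difference between GREEN and the other groups was built into their being tested at all, and their number is not read as a result. Past an adjusted p of 0.05, 5 claudins were higher and 2 lower in GREEN than in RED hepatocytes, where 9.68% of the 16387 genes tested were called higher and 3.22% lower (12.9% in all). Against CTL hepatocytes 5 were higher and 3 lower in GREEN, with 29.5% of genes called higher and 18.6% lower (48.1% in all). The 2 comparisons share the GREEN samples, and neither is independent of the other.

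**Figure D1:**
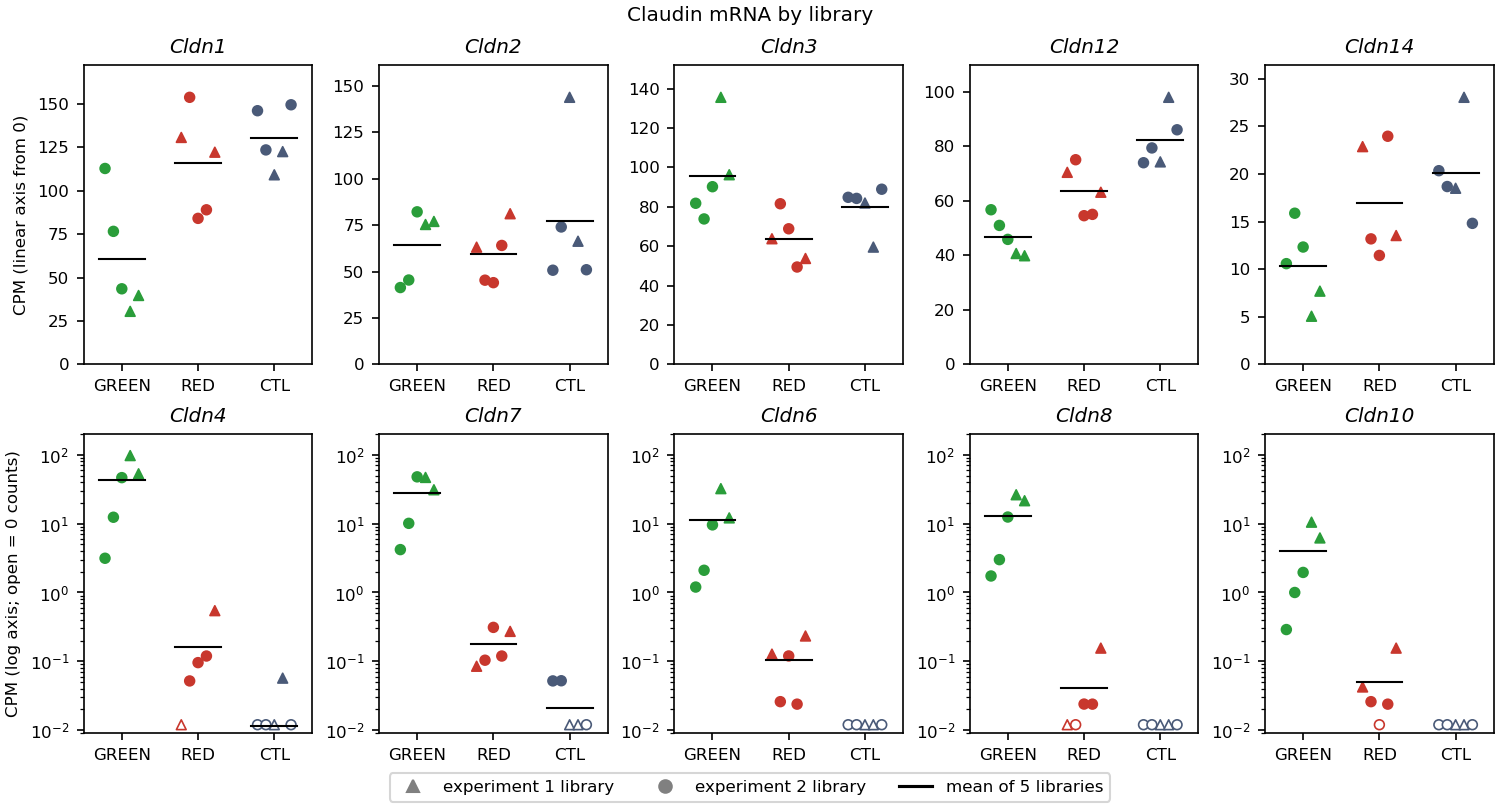
Level of each claudin (CPM) in every library of GREEN, RED and CTL hepatocytes, with a linear axis for the claudins measurable in native hepatocytes (upper row) and a log axis for the others (lower row); triangles are experiment 1 libraries, circles experiment 2 libraries, black lines group means of 5, and open symbols libraries with 0 counts. Cldn4, Cldn6, Cldn7, Cldn8 and Cldn10 lie higher in all 5 GREEN libraries than in any other, and Cldn12 lies lower in all 5 GREEN than in all 5 CTL libraries.

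Cldn4 (ENSMUSG00000047501.3, chromosome 5, 134945119 to 134946934), a sealing claudin of duct and gut epithelia and a receptor of the Clostridium perfringens enterotoxin, had 3.14, 12.4, 46.6, 97.4 and 53 CPM in GREEN 1 to GREEN 5. In RED 1 to RED 5 it had 0, 0.0519, 0.0958, 0.119 and 0.545 CPM. Of the CTL libraries only CTL 4 held a Cldn4 count, a single one (0.0570 CPM). Every GREEN library was thus above every RED and CTL library, while the GREEN libraries themselves ran from low in GREEN 1 to high in GREEN 4. The fitted log2 fold change of GREEN over RED was 7.92 (standard error 0.81, adjusted p = 9.36e-05). Against CTL the call was made at an adjusted p of 9.98e-06, and the summed counts of 10526 in GREEN and 1 in CTL, scaled by library size, gave a ratio of 6582 with a 95% counting interval of 1181 to 260000. Counting intervals and floors here cover counting error only, and positions are on GRCm38. In bulk RNA, more cells of a duct type and more duct-type RNA per cell cannot be told apart.

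Cldn7 (ENSMUSG00000018569.12, chromosome 11, 69964779 to 69967885), a claudin that lies also along the lateral membrane and binds the adhesion protein Epcam, had 4.20, 10.1, 47.8, 46.9 and 31.1 CPM in GREEN 1 to GREEN 5. RED libraries had 0.0849, 0.104, 0.311, 0.119 and 0.272 CPM in the same order of numbers, and CTL libraries 0.0520, 0.0523, 0, 0 and 0 CPM. The 3 groups did not overlap, with GREEN above RED and RED above CTL. GREEN lay above RED in every library for 6.66% of all genes tested, and RED above CTL for 10.6%. Cldn7 rose in GREEN against RED hepatocytes by a log2 fold change of 7.17 (standard error 0.74, adjusted p = 9.36e-05) and against CTL hepatocytes by 9.81 (standard error 0.90, adjusted p = 9.46e-06). Its call against RED was kept in experiment 2 alone (adjusted p = 0.0424) and without GREEN 3, GREEN 4 and GREEN 5 (log2 fold change 5.15, adjusted p = 0.0332).

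Cldn8 (ENSMUSG00000050520.4, chromosome 16, 88560828 to 88563183), a claudin known from the distal nephron and colon, had 1.74, 3.00, 12.5, 26.3 and 21.5 CPM in GREEN 1 to GREEN 5. It reached at most 0.156 CPM in RED libraries, 2 of which held none, and had no count in any CTL library. Its log2 fold change of GREEN over RED was 8.17 (standard error 0.85, adjusted p = 0.000412). With 3 counts over the CTL group as the floor, GREEN was at least 661.8-fold higher than CTL (adjusted p of the fit 4.66e-05).

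Cldn6 (ENSMUSG00000023906.2, chromosome 17, 23679249 to 23682446), a claudin best known from embryonic and newborn epithelia, had 1.20, 2.10, 9.60, 32.2 and 12.1 CPM in GREEN 1 to GREEN 5, against 0.0239 to 0.233 CPM in RED libraries and no count in CTL. GREEN exceeded RED by a log2 fold change of 6.51 (standard error 0.79, adjusted p = 0.000882) and CTL by at least 592.6-fold (adjusted p of the fit 6.27e-05). Cldn10 (ENSMUSG00000022132.15, chromosome 14, 118787908 to 118875489), whose splice forms make pores for cations or for anions, was the least abundant of the 10 in GREEN hepatocytes, with 0.289, 1.00, 1.96, 10.5 and 6.20 CPM in GREEN 1 to GREEN 5. RED libraries held at most 0.156 CPM of it and CTL libraries none. Its log2 fold change of GREEN over RED was 6.09 (standard error 0.72, adjusted p = 0.000756), and GREEN was at least 202.4-fold higher than CTL (adjusted p of the fit 6.25e-05).

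The 5 claudins shared their order over the GREEN libraries at the low end: GREEN 1 was lowest and GREEN 2 next for each of them. GREEN 4 was highest for Cldn4, Cldn6, Cldn8 and Cldn10, and GREEN 3 for Cldn7. Within experiment 2 alone, with 3 libraries per group, Cldn4, Cldn6, Cldn8 and Cldn10 were above RED by log2 fold changes of 7.81, 6.17, 8.23 and 5.82 with adjusted p values of 0.0633, 0.0791, 0.0574 and 0.0791, past the threshold for none. Without GREEN 3, GREEN 4 and GREEN 5, Cldn4 was called against RED (log2 fold change 6.48, adjusted p = 0.0393), and Cldn6, Cldn8 and Cldn10 were not (4.74, 6.80 and 4.91, with adjusted p = 0.105, 0.0871 and 0.205). Of all genes tested, 0.458% were called between GREEN and RED in experiment 2 alone and 0.301% without those 3 libraries. Against CTL all 5 were called both in experiment 2 alone, without a block, and without GREEN 3, GREEN 4 and GREEN 5. There 20.7% and 12.6% of all genes were called against CTL.

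Between RED and CTL hepatocytes none of the 10 claudins passed the threshold, where 16.2% of all genes tested did. By edgeR 5 of the 10 had an unadjusted p under 0.05, as had 26.4% of all genes tested (Cldn4 at 0.0311, Cldn6 at 0.0124, Cldn7 at 0.03, Cldn10 at 0.0204 and Cldn12 at 0.016), and DESeq2 called 4 of them (Cldn4, Cldn6, Cldn7 and Cldn12), against 21.6% of all genes. Of these 5, all but Cldn12 were tested only because the filter was passed with the GREEN libraries. The low-level claudins summed to 25 counts of Cldn4 in RED libraries and 1 in CTL, 31 and 4 of Cldn7, 16 and 0 of Cldn6, 7 and 0 of Cldn10, and 6 and 0 of Cldn8. RED was above CTL in every library for Cldn6 and Cldn7, as for 10.6% of all genes, and below CTL in every library for none of the 10, as for 1.42% of all genes. A count of 0 over the CTL group allows up to 0.01953 CPM, so a level below this may have gone uncounted. RED 5 held 14 of the 25 Cldn4 counts in RED, 4 of 6 for Cldn8 and 4 of 7 for Cldn10, and it had the highest bile duct marker sum of the RED libraries, 1602 CPM against 453 to 765 CPM in the others. Its marker sums for endothelium, stellate cells and matrix, macrophages, and mesothelium and other epithelia were the highest in RED as well (2523, 2172, 1423 and 24.4 CPM). That for lymphocytes (2.37 CPM) was not.

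**Figure D2:**
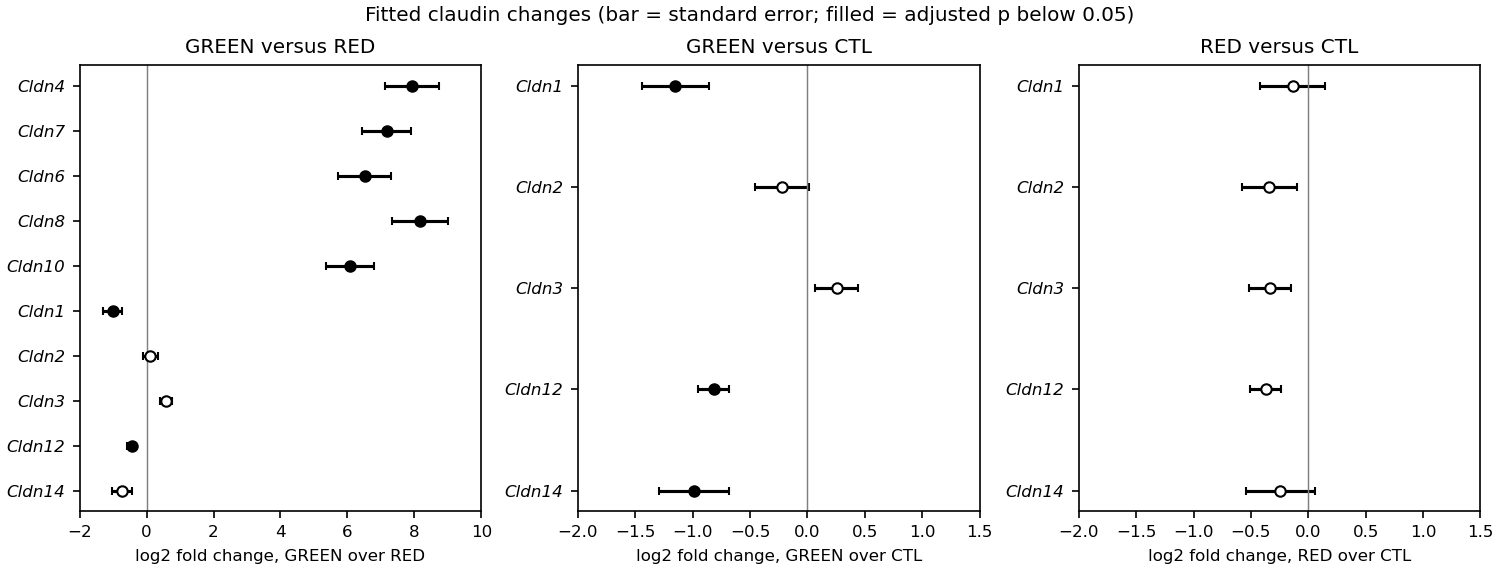
Fitted log2 fold changes with standard errors of all 10 claudins for GREEN over RED (left) and of the 5 claudins measurable in native hepatocytes for GREEN over CTL (middle) and RED over CTL (right); filled points passed the adjusted p threshold. GREEN over RED reached 6.09 to 8.17 for Cldn4, Cldn6, Cldn7, Cldn8 and Cldn10, while the other 5 lay between -1.01 and 0.59.

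Of the claudins measurable in native hepatocytes, Cldn1, Cldn12 and Cldn14 were lower in GREEN than in CTL hepatocytes past the threshold, though in no case with libraries scaled by their totals, and Cldn2 and Cldn3 were not called. Cldn1 (ENSMUSG00000022512.2, chromosome 16, 26356642 to 26371841), the barrier claudin of skin and, in human liver, an entry factor of hepatitis C virus, had 113, 76.6, 43.5, 30.6 and 39.7 CPM in GREEN 1 to GREEN 5. It had 131, 154, 84.1, 89.0 and 122 CPM in RED 1 to RED 5 and 146, 123, 109, 122 and 149 CPM in CTL 1 to CTL 5. GREEN 2 to GREEN 5 lay below every RED and CTL library, and GREEN 1 lay among them. Cldn1 was lower in GREEN than in CTL by a log2 fold change of -1.15 (standard error 0.29, adjusted p = 0.00531). Against RED it was lower by -1.01 (standard error 0.29, adjusted p = 0.0378), a call that ended when any 1 of CTL 1, CTL 5, GREEN 3, GREEN 4, GREEN 5, RED 1, RED 2 and RED 5 was left out (log2 fold change -1.06 to -0.86, adjusted p = 0.0512 to 0.11). In experiment 1 alone, with all its libraries, the log2 fold changes were -1.78 against RED and -1.79 against CTL, and in experiment 2 alone they were -0.49 and -0.85 with neither past the threshold (adjusted p = 0.815 and 0.114). Without GREEN 3, GREEN 4 and GREEN 5 they were -0.29 and -0.55 (adjusted p = 1.0 and 0.19).

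Cldn12 (ENSMUSG00000046798.14, chromosome 5, 5489537 to 5514958), an unusual claudin that lacks the C-terminal PDZ-binding motif of the family and has been linked to calcium passage in mouse gut, had 56.8, 51, 45.9, 40.7 and 39.9 CPM in GREEN 1 to GREEN 5. RED 1 to RED 5 had 70.5, 75.1, 54.6, 55.1 and 63.2 CPM, and CTL 1 to CTL 5 had 74.0, 79.4, 74.3, 98.0 and 86.1 CPM. GREEN was below CTL in every library, a pattern that 9.59% of all genes tested showed, and overlapped RED through GREEN 1. The log2 fold change was -0.82 against CTL (standard error 0.14, adjusted p = 0.000359) and stayed past the threshold in experiment 2 alone (-0.64, adjusted p = 0.0223) and without GREEN 3, GREEN 4 and GREEN 5 (-0.64, adjusted p = 0.0271). Against RED it was -0.45 (standard error 0.14, adjusted p = 0.0458), and this call ended when any 1 of CTL 5, GREEN 3, GREEN 4, GREEN 5, RED 1, RED 2 and RED 5 was left out (adjusted p = 0.0653 to 0.105).

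Cldn14 (ENSMUSG00000047109.12, chromosome 16, 93919031 to 94008837), mutated in a human hereditary deafness and known in kidney for limiting calcium passage, was the scarcest of the 5 hepatocyte claudins. It had 10.6, 15.9, 12.3, 5.07 and 7.70 CPM in GREEN 1 to GREEN 5, against 22.9, 13.2, 11.4, 24 and 13.5 CPM in RED and 20.3, 18.7, 18.5, 28.0 and 14.8 CPM in CTL libraries. GREEN overlapped both other groups. The difference from CTL passed the threshold (log2 fold change -0.99, standard error 0.31, adjusted p = 0.0166), except in experiment 2 alone (-0.47, adjusted p = 0.285), without GREEN 3, GREEN 4 and GREEN 5 (-0.55, adjusted p = 0.348) and with libraries scaled by their totals (-0.29, adjusted p = 0.305). The difference from RED did not (-0.74, standard error 0.30, adjusted p = 0.114).

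Cldn3 (ENSMUSG00000070473.4, chromosome 5, 134986214 to 134987472), a sealing claudin and the most abundant of the 10 per length in all 3 groups, had 81.8, 73.9, 90.2, 136 and 96.3 CPM in GREEN 1 to GREEN 5. It had 63.8, 81.6, 68.9, 49.5 and 53.8 CPM in RED and 84.8, 84.3, 82.0, 59.6 and 89.0 CPM in CTL libraries. GREEN overlapped RED through GREEN 2 and CTL through GREEN 1 and GREEN 2. Cldn3 was 0.59 higher than in RED on the log2 scale (standard error 0.18), just short of the threshold at an adjusted p of 0.0511, and 10 of 28 alternative fits called it, among them experiment 1 alone (0.90, adjusted p = 0.0144) and those that left out CTL 4, GREEN 1, GREEN 2 or RED 2 (0.56 to 0.69, adjusted p = 0.0288 to 0.0448). Over RED, Cldn3 was called neither in experiment 2 alone (0.30, adjusted p = 0.775) nor without GREEN 3, GREEN 4 and GREEN 5 (0.22). Against CTL the log2 fold change was 0.25 (standard error 0.18, adjusted p = 0.275).

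Cldn2 (ENSMUSG00000047230.6, chromosome X, 139800828 to 139811386), which forms pores for cations and water and in rat liver increases towards the central vein, averaged 64.3 ± 19.3 CPM in GREEN, 59.6 ± 15.4 CPM in RED and 77.3 ± 38.6 CPM in CTL hepatocytes (SD, n = 5 each). No comparison passed the threshold (log2 fold change 0.12 for GREEN over RED, -0.22 for GREEN over CTL and -0.34 for RED over CTL, with standard errors of 0.24 and adjusted p = 0.776, 0.464 and 0.413). CTL 3, with 144 CPM, lay far above the other CTL libraries at 50.8 to 74.1 CPM. Cldn2 also differed between the experiments, whose kit, run and depth cannot be told apart: in the 4 samples sequenced in both experiments its share of the library was lower in experiment 2 each time, by log2 differences of -0.65 to -0.36, whereas Cldn3 was higher in experiment 2 each time (0.23 to 0.39) and Cldn1 lay between -0.01 and 0.38. Experiment was a term of the fits.

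The scaling of the libraries bears on the modest falls. Scaling by library totals in place of TMM factors shifted the median over all genes, which on the log2 scale was 0.42 with totals and -0.02 with TMM for GREEN over RED, and 0.83 with totals and 0.11 with TMM for GREEN over CTL. The GREEN over CTL values of Cldn1, Cldn12 and Cldn14 became -0.48, -0.10 and -0.29 with none past the threshold, and that of Cldn2 became 0.49. Against RED Cldn1 (-0.62, adjusted p = 0.0592) and Cldn12 (-0.02, adjusted p = 0.92) also lost their calls with totals. Cldn3 gained one in both comparisons, at 1.06 over RED (adjusted p = 0.0141) and 1.00 over CTL (adjusted p = 0.00463). With totals 6 claudins were thus higher and 0 lower in GREEN in each comparison. Of all genes, 26.2% were then called higher and 0.244% lower than in RED, and 61.5% higher and 2.85% lower than in CTL. Measured from the median gene, Cldn1, Cldn12 and Cldn14 in GREEN over CTL were at -1.26, -0.93 and -1.10 with TMM. With totals they were at -1.31, -0.93 and -1.12. Cldn3 was at 0.14 with TMM and 0.16 with totals. Distances from the median were not tested.

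Promoters of the claudins are shown for Cldn4 and Cldn7, the most abundant of the claudins that rose in GREEN hepatocytes, and for Cldn3 and Cldn1, the leading claudins of native hepatocytes. Cldn3 and Cldn4 are neighbours on chromosome 5, with 39279 bases between them. The sequences are those before the annotated start, from RefSeq on GRCm38.p6, written 5′ to 3′ along the strand of the gene, and capitals mark CACCTG on either strand, the E-box bound by the Snail and Zeb repressors of epithelial genes. They lie at chr5:134946935-134947184 (Cldn4, minus strand), chr11:69964529-69964778 (Cldn7, plus strand), chr5:134985964-134986213 (Cldn3, plus strand) and chr16:26371842-26372089 (Cldn1, minus strand).
Cldn4: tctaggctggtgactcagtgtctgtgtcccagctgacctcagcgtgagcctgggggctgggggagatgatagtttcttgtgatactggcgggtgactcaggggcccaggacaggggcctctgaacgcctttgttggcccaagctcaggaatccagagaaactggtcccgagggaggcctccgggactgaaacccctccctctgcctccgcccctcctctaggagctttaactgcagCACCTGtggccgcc
Cldn7: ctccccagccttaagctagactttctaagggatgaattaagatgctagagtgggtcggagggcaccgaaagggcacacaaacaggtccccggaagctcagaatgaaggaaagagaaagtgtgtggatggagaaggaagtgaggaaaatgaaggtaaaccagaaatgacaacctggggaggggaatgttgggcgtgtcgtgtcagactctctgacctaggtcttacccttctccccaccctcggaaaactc
Cldn3: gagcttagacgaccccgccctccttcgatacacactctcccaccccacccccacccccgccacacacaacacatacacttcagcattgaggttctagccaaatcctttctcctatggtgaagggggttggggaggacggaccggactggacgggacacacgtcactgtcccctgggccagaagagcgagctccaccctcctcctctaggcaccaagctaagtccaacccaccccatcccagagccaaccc
Cldn1: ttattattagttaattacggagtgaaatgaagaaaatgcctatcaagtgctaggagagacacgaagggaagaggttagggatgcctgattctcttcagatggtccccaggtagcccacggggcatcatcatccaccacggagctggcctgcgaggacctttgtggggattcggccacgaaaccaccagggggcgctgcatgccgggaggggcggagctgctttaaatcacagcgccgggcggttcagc
The Cldn4 sequence held 1 such E-box, beginning 14 bases before the start, and the other 3 held none.

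Over all 15 annotated windows of 250 bases, which cover 9 of the 10 claudins (all but Cldn8), 4 held CACCTG, against 17.22% of 32851 windows of the genome's genes. These 4 belonged to Cldn4, Cldn6, Cldn7 (from a start inside the gene) and Cldn14, and so to 3 claudins that were higher and 1 that was lower in GREEN than in CTL hepatocytes. GGGCGG, the Sp1 box, was in 8 of the 15 windows, against 32.74% of all. TGANTCA, the AP-1 site, was in the Cldn4 window only, in 2 copies that are not in capitals above, against 6.75% of all. AACCNGTT, the site of the grainyhead-like factors, was in none of the 15 windows, against 1.79% of all. All 4 motifs were searched on both strands, and a match says only that the letters are there.

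Levels of different claudins were compared as CPM per kilobase of annotated exon. In GREEN hepatocytes Cldn3 led with 75.9 ± 19.0 CPM per kilobase (SD, n = 5), followed by Cldn4 with 23.4 ± 20.6, Cldn2 with 19.4 ± 5.8, Cldn7 with 14.4 ± 10.4, Cldn1 with 12.5 ± 7.0 and Cldn12 with 11.1 ± 1.7. Cldn6, Cldn8, Cldn14 and Cldn10 followed with 6.66, 5.52, 4.84 and 1.54 CPM per kilobase. From Cldn4 down, every neighbouring pair overlapped in range, and only Cldn3 stood clear of the next. In RED hepatocytes the order was Cldn3 (50.4 ± 10.1), Cldn1 (23.9 ± 6.0), Cldn2 (17.9 ± 4.6), Cldn12 (15.1 ± 2.2) and Cldn14 (7.99 ± 2.78), with the other 5 at or under 0.0916 CPM per kilobase. CTL hepatocytes had the same order, at 63.5 ± 9.3, 26.9 ± 3.5, 23.2 ± 11.6, 19.5 ± 2.4 and 9.43 ± 2.30 CPM per kilobase, with the other 5 at or under 0.0107. In both, Cldn1, Cldn2 and Cldn12 overlapped in range with their neighbours among these 3, and Cldn3 and Cldn14 stood clear above and below them.

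The make-up of claudin mRNA per kilobase differed most among the GREEN libraries. Cldn4, Cldn6, Cldn7, Cldn8 and Cldn10 together made up 4.36%, 12.1%, 33.6%, 42.9% and 34.5% of it in GREEN 1 to GREEN 5, against 0.0797% to 0.613% in RED and 0% to 0.0243% in CTL libraries. The sum of all 10 claudins was 125, 123, 184, 260 and 185 CPM per kilobase in GREEN 1 to GREEN 5, 101 to 134 in RED and 129 to 157 in CTL libraries, so GREEN 3, GREEN 4 and GREEN 5 held more claudin mRNA than any other library and GREEN 1 and GREEN 2 did not. Cldn3 kept a similar share in all groups (39.0% to 52.2% in GREEN, 37.4% to 52.6% in RED and 36.7% to 49% in CTL libraries). Cldn1 took 2.43% to 18.7% in GREEN, 16.7% to 23.6% in RED and 14.3% to 21.6% in CTL libraries.

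**Figure D3:**
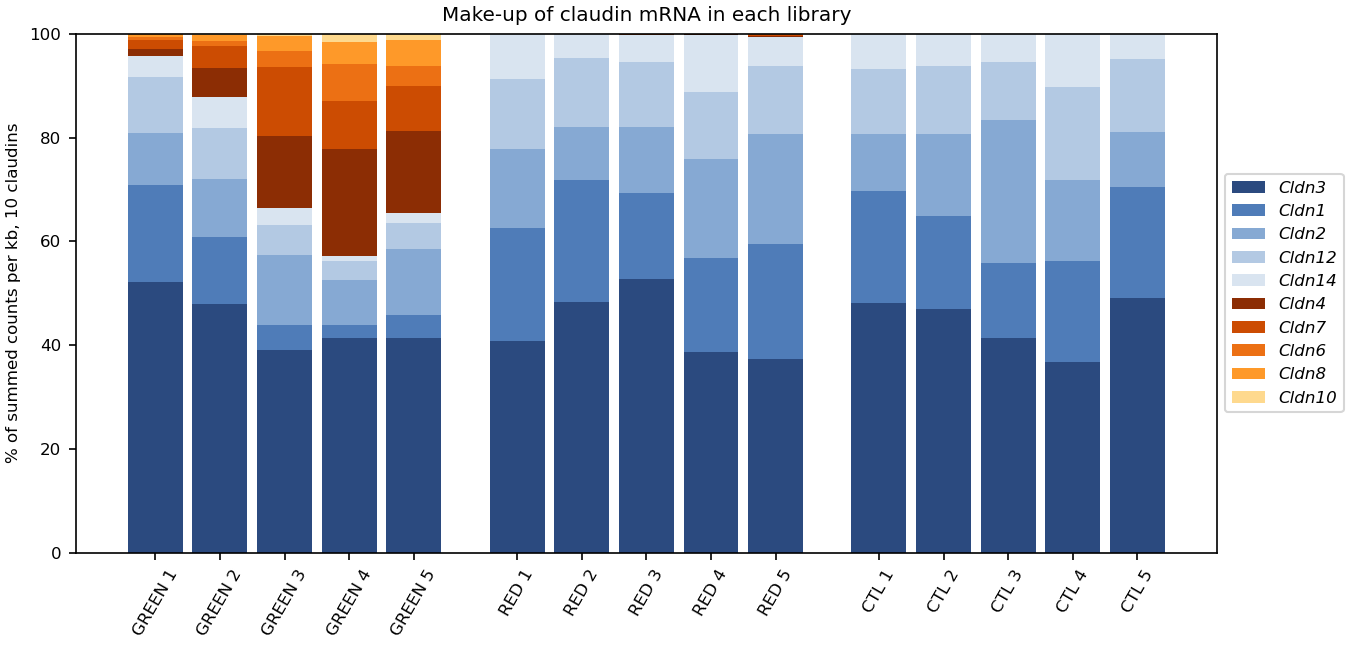
Share of each claudin in the summed CPM per kilobase of the 10 claudins (percent), one bar per library, with claudins measurable in native hepatocytes in blue and the others in orange and brown. The orange and brown part grows to 42.9% in GREEN 4, is 4.36% in GREEN 1 and stays at or under 0.613% in RED and CTL libraries.

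The ratio of Cldn3 to Cldn1, both per kilobase, does not depend on how libraries are scaled. It was 2.79, 3.71, 7.97, 17.1 and 9.33 in GREEN 1 to GREEN 5, 1.69 to 3.15 in RED and 1.87 to 2.89 in CTL libraries. GREEN 2 to GREEN 5 thus lay above all RED and CTL libraries, and GREEN 1 within their range. The ratio was picked after its values were seen and is given with no test.

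Among the 5 claudins that native hepatocytes barely held, the mix over the GREEN libraries ranged less widely than the level. Per kilobase, Cldn4 made up 31.9% of the 5 in GREEN 1 and 41.5% to 48% in the other 4, and Cldn7 39.7%, 34.8%, 39.7%, 21.6% and 25% in GREEN 1 to GREEN 5. Cldn6 made up 8.20% to 16.8%, Cldn8 8.55% to 14.3% and Cldn10 1.22% to 3.76%. Their summed level was 10.6, 28.6, 118, 213 and 124 CPM in GREEN 1 to GREEN 5.

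Bile duct markers moved with these claudins. Of 25 markers, none of them a claudin, 20 passed the test as higher in GREEN than in RED hepatocytes (9.68% of all genes) and 23 as higher than in CTL (29.5%), and 5 as higher in RED than in CTL (14.2%). Of the 25, 9 passed the filter only with the GREEN libraries, so that their being higher there was built in. Their summed level was 1127, 1486, 4931, 11156 and 6196 CPM in GREEN 1 to GREEN 5, 453 to 1602 CPM in RED and 309 to 728 CPM in CTL libraries, and Cftr and Sctr were at 0 in all CTL libraries. As a percentage of this sum, Cldn4, Cldn6, Cldn7, Cldn8 and Cldn10 together came to 0.937%, 1.92%, 2.40%, 1.91% and 2.00% in GREEN 1 to GREEN 5, against 0.0385% to 0.106% in RED and 0% to 0.0169% in CTL libraries. GREEN 2 and RED 5 had similar marker sums (1486 and 1602 CPM), while the 5 claudins summed to 28.6 CPM in GREEN 2 and 1.36 CPM in RED 5. Hepatocyte markers were lower in GREEN than in CTL for 19 of 25 (18.6% of all genes) and lower than in RED for 2 of 25 (3.22%). The part of the bile duct markers in the claudin results was not tested.

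**Figure D4:**
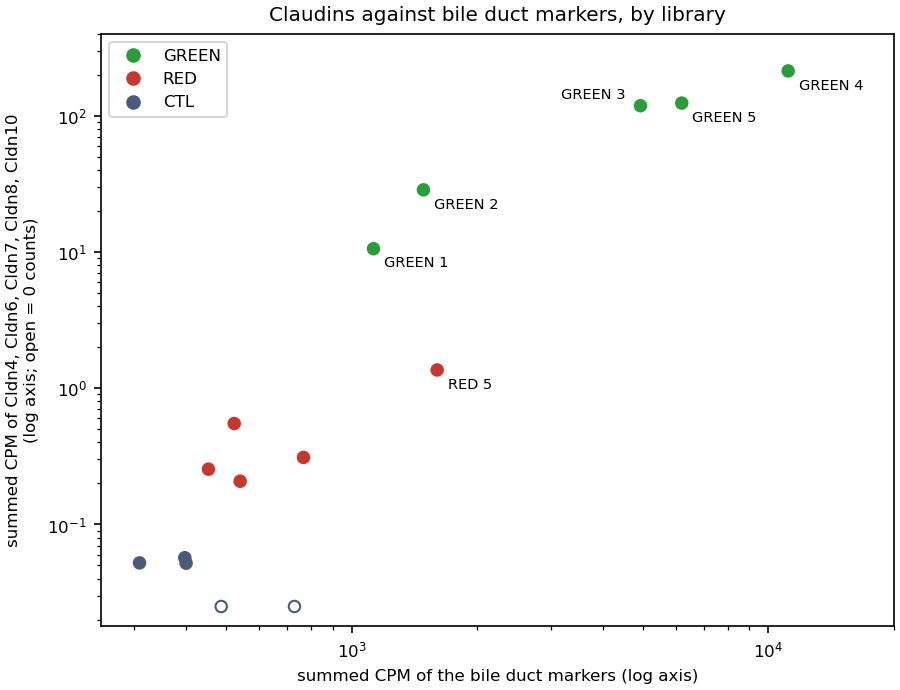
Summed CPM of Cldn4, Cldn6, Cldn7, Cldn8 and Cldn10 against the summed CPM of 25 bile duct markers, one point per library, both on log axes; open points had 0 counts of these claudins. GREEN libraries run from 10.6 CPM of claudin in GREEN 1 to 213 CPM in GREEN 4, and RED 5 lies far below GREEN 2 at a similar marker sum.

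Markers of further cell types are given for the same libraries. All 16 endothelial markers and all 15 of stellate cells and matrix passed as higher in GREEN (29.5% of all genes) and in RED (14.2%) than in CTL hepatocytes, and between GREEN and RED 0 and 5 passed as higher (9.68%). Their sums were 475 to 990 CPM in GREEN, 486 to 2523 CPM in RED and 59.2 to 179 CPM in CTL libraries for endothelium, and 1031 to 3184, 376 to 2172 and 44.6 to 95.3 CPM for stellate cells and matrix. Macrophage markers summed to 140 to 541 CPM in GREEN, 108 to 1423 CPM in RED and 37.2 to 101 CPM in CTL libraries. Of 14, 11 were higher in GREEN than in CTL (29.5% of all genes), 13 higher in RED than in CTL (14.2%) and 3 lower in GREEN than in RED (3.22%). Cldn5, the claudin of endothelium and a member of that marker list, averaged 6.14 ± 2.39 CPM in GREEN, 11.5 ± 10.3 CPM in RED and 0.726 ± 0.266 CPM in CTL hepatocytes (SD, n = 5 each). It rose in RED over CTL by 3.83 on the log2 scale (adjusted p = 0.000509) and in GREEN over CTL by 2.99 (adjusted p = 0.000502), and GREEN and RED were not called apart (-0.85, adjusted p = 0.237). Lymphocyte markers summed to 3.83 to 19.8 CPM in GREEN, 0.806 to 2.82 CPM in RED and 0.866 to 5.99 CPM in CTL libraries. Of 10, 4 were tested, 2 of them only through the GREEN libraries. In GREEN 1 of the 4 was higher than in RED (9.68% of all genes). Against CTL 1 was higher and 1 lower in GREEN (29.5% and 18.6%), and 0 higher and 1 lower in RED (14.2% and 1.99%). Markers of mesothelium and of other epithelia summed to 17.8 to 79.5 CPM in GREEN and 8.72 to 24.4 CPM in RED libraries. In CTL libraries they summed to 23.0 to 34.1 CPM. Of these 12 markers 6 were tested, 3 of them only through the GREEN libraries. As higher, 4 of the 6 passed in GREEN over RED (9.68% of all genes), 5 in GREEN over CTL (29.5%) and 3 in RED over CTL (14.2%). As lower, 0 passed in each (3.22%, 18.6% and 1.99% of all genes). The basal keratin Krt5 and the gut factor Cdx2 were the 2 markers at 0 in GREEN, where RED had 2 at 0 and CTL 5. The part of these cells in the claudin results was not tested.

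Of the 19 other claudins in the list, 4 passed the filter, Cldn5, Cldn15, Cldn23 and Cldn34c1, of which Cldn15 and Cldn23 did so only with the GREEN libraries. Cldn23 averaged 2.01 ± 1.35 CPM in GREEN and 0.0954 ± 0.0572 CPM in RED hepatocytes and rose by 4.36 on the log2 scale (adjusted p = 0.000438), and by 4.32 over CTL (adjusted p = 7.7e-05). Cldn15, a cation pore of the gut, averaged 1.41 ± 0.59 CPM in GREEN and 0.368 ± 0.188 CPM in RED (log2 fold change 1.98, adjusted p = 0.0453), and was 4.03 above CTL (adjusted p = 0.000465). Neither was called against RED without GREEN 3, GREEN 4 and GREEN 5 (Cldn23 3.45, adjusted p = 0.054, and Cldn15 0.70, adjusted p = 1.0), nor in experiment 2 alone (4.40, adjusted p = 0.069, and 1.34, adjusted p = 0.334). Cldn9, which lies 137 bases from Cldn6 and resembles it, had 4 counts over the 15 libraries.

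Of 11 other membrane proteins of the tight junction, 2 were higher and 0 lower in GREEN than in RED hepatocytes (9.68% and 3.22% of all genes), with a median log2 fold change of 0.47 against -0.02 for all genes. Scaled by library totals 6 were higher (26.2% of all genes). Ildr1, an angulin of the corners where 3 cells meet, had 13.1 ± 10.0 CPM in GREEN, 0.125 ± 0.114 CPM in RED and 0.125 ± 0.076 CPM in CTL hepatocytes, a log2 fold change of 6.33 over RED (adjusted p = 0.000206) and 6.60 over CTL (adjusted p = 2.87e-05). It was tested only through the GREEN libraries, and kept both the direction and the call against RED without GREEN 3, GREEN 4 and GREEN 5 (4.70, adjusted p = 0.0394). Marveld2, or tricellulin, of the same corners, was 0.65 higher in GREEN than in RED (adjusted p = 0.0412), with 0.12 without those 3 libraries (adjusted p = 1.0) and 0.27 in experiment 2 alone (adjusted p = 0.835). Lsr and Ildr2, the other angulins, fell in GREEN against CTL by 0.85 and 1.10 on the log2 scale (adjusted p = 0.00125 and 0.0167), while Jam2 and Jam3, junction molecules also of endothelium, were 3.07 and 2.82 higher (adjusted p = 0.000303 and 0.000655), and 3.65 and 2.11 higher in RED than in CTL (adjusted p = 0.000509 and 0.00925). Against CTL 4 of the 11 were higher and 2 lower in GREEN (29.5% and 18.6% of all genes), and 8 were higher and 0 lower when scaled by library totals (61.5% and 2.85%). Without GREEN 3, GREEN 4 and GREEN 5 only 2 were higher and 0 lower (9.87% and 2.73% of all genes), with Lsr, Ildr2 and Jam3 not called (adjusted p = 0.0571, 0.143 and 0.0666). Occludin (Ocln), named here for its part in all tight junctions, averaged 37.7 ± 13.5 CPM in GREEN, 21.3 ± 7.0 CPM in RED and 36.7 ± 11.9 CPM in CTL hepatocytes and passed in no comparison (adjusted p = 0.0814 for GREEN over RED, 0.933 for GREEN over CTL and 0.0965 for RED over CTL).

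The plaque proteins that tie claudins to the cytoskeleton and to cell polarity included 21 genes, all tested. Between GREEN and RED 7 were higher and 0 lower (9.68% and 3.22% of all genes), with a median log2 fold change of 0.39 against -0.02 for all genes, and 16 were higher under library totals (26.2%). The polarity proteins Pard6b, Patj and Prkci were higher in GREEN than in RED by 1.45, 1.21 and 0.68 on the log2 scale (adjusted p = 0.00539, 0.0075 and 0.0317), the scaffold Magi1 by 1.15 (adjusted p = 0.00576) and cingulin (Cgn) by 0.88 (adjusted p = 0.0246). In experiment 2 alone and without GREEN 3, GREEN 4 and GREEN 5, none of the 21 passed against RED. Of all genes tested, 0.458% and 0.301% passed in these 2 fits. Against CTL 12 were higher and 2 lower in GREEN (29.5% and 18.6% of all genes), and 19 higher and 0 lower under library totals (61.5% and 2.85%). Without GREEN 3, GREEN 4 and GREEN 5 the counts were 2 and 1 (9.87% and 2.73% of all genes), and in experiment 2 alone 4 and 1 (15.8% and 4.85%). Arhgef2 and Amotl1 were 4.64 and 4.86 higher in GREEN than in CTL and 3.67 and 3.93 higher in RED than in CTL (adjusted p = 8.43e-05, 9.49e-05, 0.000866 and 0.00084), Pard6b and Amot were 1.56 and 1.86 higher in GREEN than in CTL (adjusted p = 0.00066 and 0.00125) but not called without those 3 libraries (0.60 and 0.69, adjusted p = 0.174 and 0.297), and the kinase Prkcz had log2 fold changes of -0.87 in GREEN and -1.07 in RED against CTL (adjusted p = 0.00144 and 0.000967). Mpdz fell by 0.57 in RED against CTL (adjusted p = 0.00488).

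Regulators known for claudins or for epithelial junctions were counted last. Of 12 tested of 16 listed, 6 were higher and 0 lower in GREEN than in RED (9.68% and 3.22% of all genes), and 8 were higher and 4 lower in GREEN than in CTL (29.5% and 18.6%). Under library totals the counts against CTL were 8 and 0 (61.5% and 2.85%). Klf5, Esrp1 and Ovol2 passed the filter only with the GREEN libraries, so that their being higher there was built in and the counts are not read as a result. The counts without GREEN 3, GREEN 4 and GREEN 5 were 1 and 0 against RED (0.295% and 0.00579% of all genes) and 5 and 0 against CTL (9.87% and 2.73%). Grhl2, a grainyhead-like factor that in mouse epithelia activates Cldn4, had 22.3 ± 14.1 CPM in GREEN, 1.57 ± 1.21 CPM in RED and 1.20 ± 0.56 CPM in CTL hepatocytes (log2 fold change over RED 3.87, adjusted p = 0.0018, and over CTL 4.25, adjusted p = 0.000213). Ovol2, which acts in mouse with Grhl2 on epithelial genes, had 1.78 ± 1.28 CPM in GREEN and 0.0373 ± 0.0414 CPM in RED (5.63, adjusted p = 0.000661). Klf5, a factor of proliferating epithelia, had 16.6 ± 11.1 CPM in GREEN and 0.121 ± 0.077 CPM in RED (6.94, adjusted p = 7.55e-05), and Esrp1, an epithelial splicing factor, 15.1 ± 10.5 CPM in GREEN and 0.0611 ± 0.101 CPM in RED (7.95, adjusted p = 0.000114). The membrane protease St14, or matriptase, was 3.55 higher in GREEN than in RED (adjusted p = 0.00247). Without GREEN 3, GREEN 4 and GREEN 5 only Klf5 of these 5 was called against RED (5.41, adjusted p = 0.0126), and Grhl2 was not (1.99, adjusted p = 0.199). Between RED and CTL Grhl1 and Elf3 were higher by 2.09 and 3.15 (adjusted p = 0.00457 and 0.00977), Elf3 not past the threshold in experiment 2 alone (3.30, adjusted p = 0.143).

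For each claudin the 3 tested genes with the most similar pattern were found by the root mean square difference of log2 CPM over the 15 libraries, with each gene centred and the difference between experiments removed. The nearest to Cldn7 was Spint1 (0.34 on the log2 scale, where Cldn7 itself had a spread of 3.64), an inhibitor of the protease encoded by St14, followed by Cttnbp2 and Fxyd3. Cttnbp2, Spint1 and Mmp7 were nearest to Cldn4 (0.45 to 0.60, spread 3.97). Ugt8a (0.21), Esrp1 and Aif1l were nearest to Cldn8, Ltb (0.44), Lrrn1 and Fam83b to Cldn6, and Stat4 (0.38), Ckmt1 and Arhgap8 to Cldn10. Among the hepatocyte claudins, the nearest to Cldn14 were Arl4d, Hnmt and Hnf4a, at 0.23 each where Cldn14 had a spread of 0.62. Those nearest to Cldn1 were C130074G19Rik, Dnase2b and Mctp2 (0.16 to 0.20, spread 0.69), to Cldn12 Zfp946, Pcyox1 and Asb13 (0.08 to 0.11, spread 0.38) and to Cldn3 Nfib, Ttc30b and Vmac (0.13 to 0.14, spread 0.35). Prcc, Psme1 and Stim2 were nearest to Cldn2 at 0.23 to 0.24, a distance not far under its own spread of 0.36.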

How the data were processed

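Per the labels' protocols, libraries were made from 150 ng of total RNA, 10 in experiment 1 (TruSeq Stranded mRNA) and 9 in experiment 2 (KAPA RNA HyperPrep with RiboErase). The authors deposited estimated counts per gene, not normalized. They used kallisto 0.43.1 with GRCm38, per the submitters' processing notes. The sources used here do not give the annotation release. Symbols, positions and exon lengths came from a GENCODE annotation of GRCm38, in which 34924 of 35274 gene identifiers (99.0%) were found, and no claudin of the 10 overlapped another annotated gene. Pseudo-alignment divides reads between similar sequences, so close paralogs such as Cldn6 and Cldn9 are uncertain.

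Counts were rounded. Each of the 15 samples entered with 1 library, the experiment 2 library for the 4 with a library in each. Genes were filtered with filterByExpr (16387 left), scaled by TMM and fitted with group and experiment as terms in edgeR 4.0.16 (R 4.3.3; quasi-likelihood F test), with Benjamini-Hochberg adjustment over all genes tested and a threshold of 0.05. Every adjusted p is from this test unless another tool is named. CPM uses TMM-scaled library sizes, and error is the SD over 5 samples or the standard error of the fit. Each p-value measures the spread of samples labelled as biological replicates; which samples share an animal is not stated. Scripts were tested on simulated data. Alternatives were other scalings, DESeq2 1.42.0, limma 3.58.1 (voom), no filter, other libraries, each experiment alone, replicate blocks and left-out libraries.

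The members and gene lists were chosen with earlier results of these data known. All 10 claudins were named, and of each partner list up to 5 genes per comparison, by the smallest adjusted p among those past the threshold. Promoter motifs were settled after others had been tried on the same windows.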

Additional observations from a re-analysis of the deposited data

Results flagged for a closer look

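In the 25 groups of 5 samples in which a claudin had more than 3 counts in some library, 5 values lay far from the rest of their group by the gap to the nearest library over the range of the group (critical value 0.71), and chance flags about 1 group in 20. Cldn2 in CTL 3, at 143.953 CPM against 74.1 CPM in the nearest CTL library, had a ratio of 0.75. Cldn3 in CTL 4, at 59.5734 CPM against 82.0 CPM in the nearest, had a ratio of 0.762, and CTL 4 had the lowest TMM factor of the 15 libraries (0.6241). The other 3 were all in RED 5: Cldn4 at 0.544658 CPM (14 counts, nearest 0.119 CPM), Cldn8 at 0.155617 CPM (4 counts, nearest 0.0239 CPM) and Cldn10 at 0.155617 CPM (4 counts, nearest 0.0424 CPM), with ratios of 0.781, 0.846 and 0.727. RED 5 also had the highest bile duct marker sum of the RED libraries, 1602 CPM. Its sums for endothelium, stellate cells and matrix, macrophages, and mesothelium and other epithelia were the highest in RED as well, and that for lymphocytes was not. The part of any of these cells in the values was not tested.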

How the results depend on the processing

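Between GREEN and RED 7 claudins were called, where 12.9% of all genes tested were. Of these 7, 1 was called in experiment 2 alone (0.458% of all genes) and 2 without GREEN 3, GREEN 4 and GREEN 5 (0.301%). Leaving out 1 library gave 5 to 8. The 8 called between GREEN and CTL stayed 8 each time 1 library was left out. Between RED and CTL the count of 0 (16.2% of all genes) became 4 with DESeq2 (21.6%) and 4 without GREEN 3, GREEN 4 and GREEN 5 (18.7%). The count was 2 with a replicate block by title number, and 0 to 2 with 1 library left out (Cldn6 without GREEN 1 or GREEN 3, Cldn10 without GREEN 1, Cldn12 without RED 1). The values that changed sign were all short of the threshold: Cldn2 in GREEN over RED (-0.057 with the experiment 1 library of samples with 2 libraries, -0.11 in experiment 1 alone, -0.17 without GREEN 3, GREEN 4 and GREEN 5, and -0.11 to 0.20 with 1 library left out) and in GREEN over CTL (0.49 with library totals), Cldn3 in GREEN over CTL (-0.072 in experiment 2 alone and -0.20 without those 3 libraries), and, in RED over CTL, Cldn1 (0.14 with library totals, 0.17 with the experiment 1 libraries, -0.32 to 0.0015 with 1 left out) and Cldn14 (0.038 and 0.047). The causes were not tested. The log2 difference in the Cldn3 to Cldn1 ratio between GREEN and RED was 1.65, with 2.82 in experiment 1, 0.86 in experiment 2 and 0.43 without GREEN 3, GREEN 4 and GREEN 5 (alternatives added after seeing the data).

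Library code numbers gave 4 pairs of GREEN and RED samples within an experiment, whose deviations from their group means correlated at 0.58, 0.40 and 0.78 in experiment 2 and -0.22 in experiment 1. As 1 pair lay below 0.1, the samples were not treated as paired. Of the GREEN libraries, GREEN 3 correlated best with the RED library of its own number, and GREEN 1 nearly so (0.577, against 0.5785 with RED 1). With a replicate block by title number 6 claudins were called between GREEN and RED and 8 between GREEN and CTL. With a block by code number, and RED and GREEN alone in the fit, 5 were called, as without the block in the same libraries, while 0 plaque genes and 3 regulators were called with it and 3 and 6 without it, and 5 claudins also in experiment 2 alone with the block.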
